A study of Homo sapiens with 4 samples.

Results

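The promoters described here belong to the nuclear genes of the respiratory chain and the ATP synthase in SEM cells, a human B cell precursor leukemia line with a rearranged MLL gene. Members were the protein-coding genes whose symbol begins with NDUFA, NDUFB, NDUFC, NDUFS, NDUFV, UQCR, COX4, COX5, COX6, COX7, COX8, SDH, ATP5F or ATP5M, and their promoter peaks were the accessible regions within 1 kb of an annotated start. The symbols matched 97 genes of 19794 protein-coding genes, and 86 of the 97 had at least 1 peak. These genes held 141 of the 139872 peaks in the deposited table, and 128 of the 141 passed the filter on low counts. The symbols sort the genes by complex: 38 genes of complex I subunits, 8 genes of complex I assembly factors (NDUFAF), 8 of complex II with its assembly factors (SDHAF), 9 of complex III, 19 of complex IV and 15 of complex V. NDUFA4, NDUFA4L2 and COX7A2L were placed with complex IV.

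ATAC-seq, in which a transposase cuts and tags open chromatin, was used to ask how far the effect of CRISPR interference at a distal FLT3 enhancer spreads over the genome. All cells carried dCas9-KRAB-BSD, a catalytically dead Cas9 fused to the KRAB repressor domain. One group received sgFLT3-DE-1, a guide against a HOXA9-bound distal enhancer of FLT3, and the other received sgNT, a non-targeting guide, with 2 libraries for each guide. The study calls replicates of a condition biological replicates in its account of peak calling, but the labels do not say that these were separate cultures, so p-values measure the spread between libraries, which may be technical. The sources do not say whether the cells were a single clone.

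The respiratory chain passes electrons from NADH (through complex I) and succinate (through complex II) to ubiquinone, then through complex III and cytochrome c to complex IV, which reduces oxygen. Complexes I, III and IV pump protons across the inner mitochondrial membrane, and complex V, the ATP synthase, lets them back to make ATP. Most subunits are encoded in the nucleus and a minority in mitochondrial DNA, which these peaks do not include. The nuclear respiratory factor NRF1, the ETS family protein GABPA and YY1 are known regulators of the nuclear genes, and many of the genes are expressed in almost every cell type.

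Library totals ran from 2683477 to 4831164 counts in peaks, and both sgFLT3-DE-1 libraries were deeper than both sgNT libraries. The peak over the sgFLT3-DE-1 target (chr13:28842815-28843351, hg19) held 214 and 338 counts in sgFLT3-DE-1 and 378 and 350 in sgNT. Its log2 fold change was -0.92 (SE 0.264), with an edgeR unadjusted p of 0.00164 and a Benjamini-Hochberg adjusted p of 1.0. The study, with other tests, reported the decrease at its target locus as the most significant of all ATAC-seq peaks, at an FDR under 0.05. Of the 8 B cell precursor genes checked, 7 had a promoter peak, with none at CD79A and at most 5 counts in any library at CD79B. CD14 and ALB, markers of monocytes and hepatocytes, had none. The T cell marker CD3E held at most 5 counts and the T cell marker CD8A 29 to 71 counts in a library. LYZ, also a monocyte marker, held at most 7 counts and the epithelial marker EPCAM at most 6.

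Sequence shared by the promoters was looked for in the reference genome (GRCh37), in a window from 250 bases before to 50 bases after the start of each gene's canonical transcript and on both strands. The word AAGATGG, the core of the YY1 motif, lay in 19 of the 97 windows (19.6%), against 6.44% over 19516 protein-coding genes. The ETS word CCGGAAG lay in 26.8% of member windows against 14.1% of all windows. The palindromic core of the NRF1 motif lay in 5 member windows (5.15%, exact 95% binomial interval 1.70 to 11.6%) against 1.71% of all windows. The SP1 word GGGCGG (59.8% against 61.8%) and the NFY word CCAAT (30.9% against 36.0%) were about as frequent as elsewhere. Matches of different words can overlap, and a match is a description of letters and not a bound site.

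Each of the 5 NRF1 matches lay before or across the start. They are shown because they are the complete set, 30 bases each on the gene's strand, with the palindrome in capitals:
ATP5F1C (chr10:7830108-7830137, plus strand): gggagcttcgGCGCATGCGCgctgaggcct
NDUFA8 (chr9:124922043-124922072, minus strand): gttgccggatGCGCATGCGCaggcgccgtg
NDUFAF5 (chr20:13765660-13765689, plus strand): agccgcgctgGCGCATGCGCacaaaaagcg
NDUFB4 (chr3:120315014-120315043, plus strand): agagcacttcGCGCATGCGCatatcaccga
SDHD (chr11:111957477-111957506, plus strand): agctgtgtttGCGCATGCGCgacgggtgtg
The 5 genes span complexes I, II and V and include 1 assembly factor. No window of complex III or IV held the palindrome.

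The YY1 word took a different place from the other words. Of its 20 matches in member windows, 15 began at or after the start, with a median position of 14 bases after it, while over all genes 47.4% did and the median was 2 bases before it. In 13 of the 16 matches in the direction of the gene (81.3%), the ATG inside the word was the annotated start codon, against 42.7% of 891 such matches over all genes. In those 13 genes the word includes the first codon of the protein, as in these 5 of complexes I, II, III and V, with AAGATGG in capitals:
NDUFA7 (chr19:8386227-8386256, minus strand): atcgcggacggAAGATGGcgtccgccaccc
SDHB (chr1:17380499-17380528, minus strand): cgtcaggagccAAGATGGcggcggtggtcg
SDHC (chr1:161284182-161284211, plus strand): gaccggaacccAAGATGGctgcgctgttgc
UQCRC1 (chr3:48647038-48647067, minus strand): actgcagctggAAGATGGcggcgtccgtgg
ATP5ME (chr4:668021-668050, minus strand): aggtcagggacAAGATGGtgccaccggtgc
In all 5 sequences the word begins within 26 bases after the start. The word was found in 28.9% of complex I subunit windows, 25.0% of complex II, 22.2% of complex III, 13.3% of complex V and 5.26% of complex IV.

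Many of the genes share their promoter with a neighbour on the other strand. A protein-coding start on the opposite strand, upstream and within 1 kb, was annotated for 27 of the 97 genes (27.8%), against 9.42% of all protein-coding genes. By complex these were 13 of 38 complex I subunits, 4 of 8 complex I assembly factors, 3 of 8 in complex II, 3 of 9 in complex III, 1 of 19 in complex IV and 3 of 15 in complex V. The nearest pair in each class was NDUFB9 with TATDN1 (38 bp apart), NDUFAF7 with CEBPZ (62 bp), SDHD with TIMM8B (117 bp), UQCRH with LRRC41 (82 bp), COX4I1 with EMC8 (151 bp) and ATP5MK with PDCD11 (151 bp). TIMM8B is itself a mitochondrial protein, of the import machinery, while PDCD11 acts in ribosomal RNA processing and EMC8 in the endoplasmic reticulum membrane complex. Other pairs were NDUFAF2 with the DNA repair gene ERCC8, NDUFA7 with the ribosomal protein gene RPS28, and ATP5F1C with KIN.

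Among the pairs with starts 62 to 266 bp apart, 7 have no exon of a coding transcript between the starts. The closest of them in each class that has any is shown. Each runs 5′ to 3′ on the strand of the respiratory gene, from the base next to the neighbour's start to the base before its own, with motif words of either strand in capitals:
UQCRH and LRRC41 (chr1:46769289-46769369, plus strand): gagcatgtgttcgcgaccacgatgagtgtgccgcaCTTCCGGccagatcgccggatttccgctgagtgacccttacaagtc
NDUFAF7 and CEBPZ (chr2:37458740-37458800, plus strand): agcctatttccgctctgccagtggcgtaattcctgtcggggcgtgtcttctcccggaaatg
NDUFA1 and RNF113A (chrX:119005697-119005794, plus strand): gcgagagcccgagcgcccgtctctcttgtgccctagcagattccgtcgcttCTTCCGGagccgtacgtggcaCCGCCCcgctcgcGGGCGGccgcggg
ATP5F1C and KIN (chr10:7829957-7830139, plus strand): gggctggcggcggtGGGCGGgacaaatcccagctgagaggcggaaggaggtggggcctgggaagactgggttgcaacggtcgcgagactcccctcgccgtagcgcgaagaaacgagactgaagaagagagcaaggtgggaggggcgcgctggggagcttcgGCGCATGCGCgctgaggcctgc
An ETS word on the opposite strand lies between UQCRH and LRRC41 and between NDUFA1 and RNF113A. None of the words lies between NDUFAF7 and CEBPZ. The DNA between ATP5F1C and KIN holds an SP1 word and the NRF1 palindrome 22 bases before the start of ATP5F1C.

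**Figure D1:**
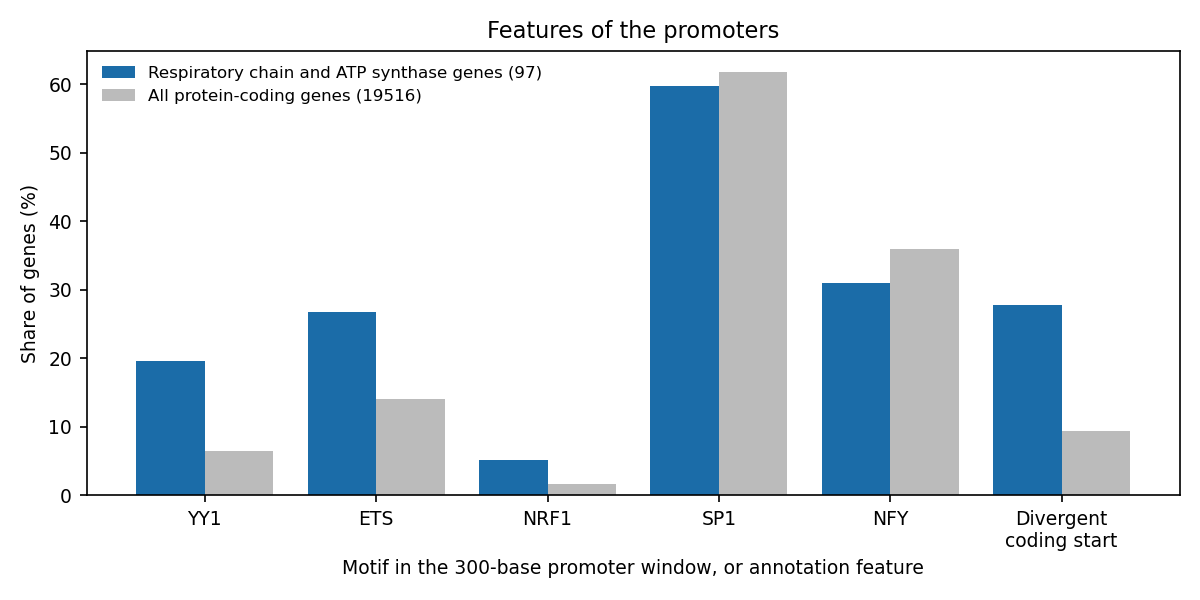
Bars give the share of genes, in percent, whose promoter window holds each motif word, or that have a divergent protein-coding start within 1 kb, for the 97 respiratory chain and ATP synthase genes and for 19516 protein-coding genes. The member bars are higher for YY1 (19.6%), ETS (26.8%), NRF1 (5.15%) and the divergent start (27.8%), and about level for SP1 and NFY.

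Between genes, accessibility was compared as CPM per kb, which is the count scaled to a common library size and divided by the length of the peak, using the lead peak of each gene, which is its promoter peak with the highest mean count. The median over the 86 genes was 52.5 CPM per kb in sgNT, against 44.4 over 12618 protein-coding genes with a peak. With sgFLT3-DE-1 these medians were 45.1 and 38.9. In sgNT 48 of the 86 genes lay above the median of all such genes, 26 above the upper quartile and 13 in the lowest quartile. Lead peaks of members were shorter (median 321.5 against 380 bp), with a lower GC content (63.2% against 66.8%), and the part of length and GC content in the level was not tested. The lead peak covered an annotated start in 76 of the 86 genes. A single peak was found at 46 genes, 2 peaks at 25 and 3 or more at 15, and genes with readthrough transcripts share peaks, so that the lead peaks were 84 distinct regions.

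The complexes overlapped widely in level. In sgNT the median was 54.7 CPM per kb for complex I subunits, 76.5 for complex I assembly factors, 46.6 for complex II, 53.0 for complex III, 40.1 for complex IV and 55.9 for complex V. In every class except complex II the genes ranged more than 3-fold. The medians in sgNT library 1 and library 2 were 50.1 and 53.2 for complex I subunits, 79.5 and 79.7 for complex I assembly factors, 38.5 and 52.6 for complex II, 47.1 and 47.6 for complex III, 35.1 and 50.2 for complex IV and 50.3 and 63.5 for complex V. The order of complexes II, III and IV thus changed between the libraries. Assembly factors, complex V and complex I subunits were the highest in both, in that order. The 26 genes with a divergent neighbour and a peak had a median of 61.5 CPM per kb in sgNT, the other 60 genes 48.1, and the former were higher in both sgNT libraries (55.1 against 38.8, and 67.7 against 53.1).

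**Figure D2:**
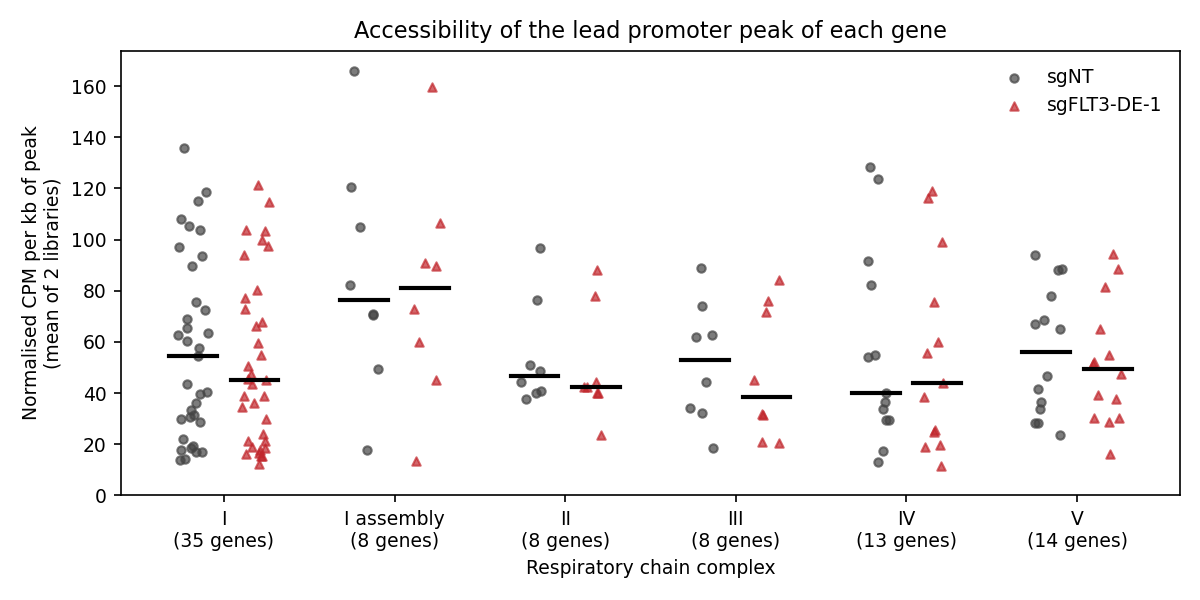
Each point is 1 gene, placed by its complex and by the CPM per kb of its lead peak, as the mean of 2 libraries of sgNT (circles) or sgFLT3-DE-1 (triangles), with black lines at the medians. The 8 complex I assembly factors have the highest sgNT median (76.5), and all classes overlap.

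The highest and lowest genes of each class show this range. NDUFAF2, a late assembly factor of complex I that shares its promoter with ERCC8, was the highest of all at 166.1 CPM per kb in sgNT. NDUFC1, an accessory subunit of complex I, was next at 135.8. This peak covers the start of NAA15 and lies 1 bp from an annotated start of NDUFC1. All 361 bp of it lie in an intron of the canonical NDUFC1 transcript. The other NDUFC1 peaks, nearer the canonical start, had 42.8 and 49.2 CPM per kb in sgNT. COX7C, a small subunit of complex IV, reached 128.2, SDHAF3, which assists iron-sulfur insertion in complex II, 96.9, ATP5F1B, the catalytic beta subunit of the ATP synthase, 93.8, and UQCRQ, a complex III subunit next to GDF9, 88.7. At the low end were COX4I1 (13.2), NDUFB7 (13.9), NDUFAF1 (17.8), UQCR11 (18.6), ATP5MGL (23.5) and SDHAF1 (37.7). COX4I1 encodes the common form of a regulatory subunit, so a low peak was found at a gene that most cells express. ATP5MGL is a retrogene of ATP5MG, and reads of the copies could be hard to tell apart.

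The table used here has no entry within 1 kb of a start for 11 genes, whose accessibility was not analysed here, while their promoter windows and neighbours are counted above: ATP5MG, NDUFA3, NDUFA6, NDUFB11, COX7B, UQCRHL, COX4I2, COX6A2, COX6B2, COX7A1 and COX7B2. The last 5 are tissue isoforms of complex IV, known from lung (COX4I2), striated muscle (COX6A2 and COX7A1) and testis (COX6B2 and COX7B2). The nearest table entry was 6.24 kb away at UQCRHL and 300.5 kb away at COX7B. ATP5MG, NDUFA3 and COX7B are widely expressed, and what a missing entry says about their chromatin was not tested. A pair of tissue forms did have a peak. NDUFA4L2, a paralog of NDUFA4 known to be induced by hypoxia, held 17 and 24 counts in sgFLT3-DE-1 and 22 and 17 in sgNT. COX8C, a testis form, held 19 and 37 against 18 and 25, in a peak 744 bp from its start.

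Between the guides, no promoter peak of the respiratory chain or ATP synthase passed the threshold of an adjusted p of 0.05 in edgeR's quasi-likelihood test, against 2 of 82558 tested peaks in the whole table (0.00242%). With the library number added to the fit as a block, 74 of all tested peaks passed (0.0896%) and again none of the members. All 128 member peaks had an adjusted p of 1.0. At an unadjusted p under 0.05, 2 member peaks were lower with sgFLT3-DE-1, NDUFV3 and UQCR11, where 1.07% of all tested peaks were lower, and no member peak was higher, where 0.827% of all were. By estimate 70 of the 128 peaks were lower (54.7%) and 58 higher, with a median log2 fold change of -0.04 and a range of -0.98 to 0.66. The median standard error of a member peak was 0.319. Over all tested peaks 48.1% were lower (median 0.01), and over 18160 tested promoter peaks of protein-coding genes 62.7% (median -0.09). A correction for GC content turned the sign of the member median to 0.02.

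The groups did not overlap at 38 member peaks. Both sgFLT3-DE-1 libraries were below both sgNT libraries at 27 of the 128 peaks (21.1%, background 14.9%, promoter peaks of all coding genes 25.2%). Both were above at 11 (8.59%, background 12.8%, promoter peaks of all coding genes 6.98%). The shares for the members thus lay between those of all peaks and those of promoters.

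The complexes had near-zero medians alike: -0.02 for complex I subunits (27 of 52 peaks lower), -0.06 for complex I assembly factors (11 of 19), -0.09 for complex II (7 of 9), -0.05 for complex III (7 of 13), -0.01 for complex IV (8 of 16) and -0.02 for complex V (10 of 19). Non-overlapping lower peaks, at a background of 14.9%, were 9 of 52 in complex I subunits, 3 of 19 in complex I assembly factors, 2 of 9 in complex II, 4 of 13 in complex III, 2 of 16 in complex IV and 7 of 19 in complex V. Non-overlapping higher peaks, at a background of 12.8%, were 8 of 52 in complex I subunits and 3 of 19 in complex I assembly factors, with none among the 57 tested peaks of complexes II to V. Over promoter peaks of all coding genes the shares were 25.2% lower and 6.98% higher. All 3 of the lower assembly factor peaks without overlap are NDUFAF6 peaks within 1 kb of a start of CCNE2. The 3 higher ones lie at NDUFAF6 and NDUFAF7. Whether these splits differ between complexes was not tested. Without sgFLT3-DE-1 library 2 the median of all members was -0.19, that of complex I subunits -0.09, of complex I assembly factors -0.01, of complex II -0.23, of complex III -0.62, of complex IV -0.13 and of complex V -0.29. Without sgNT library 1 that of complex II was -0.30, of complex III -0.17 and of complex V -0.21.

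**Figure D3:**
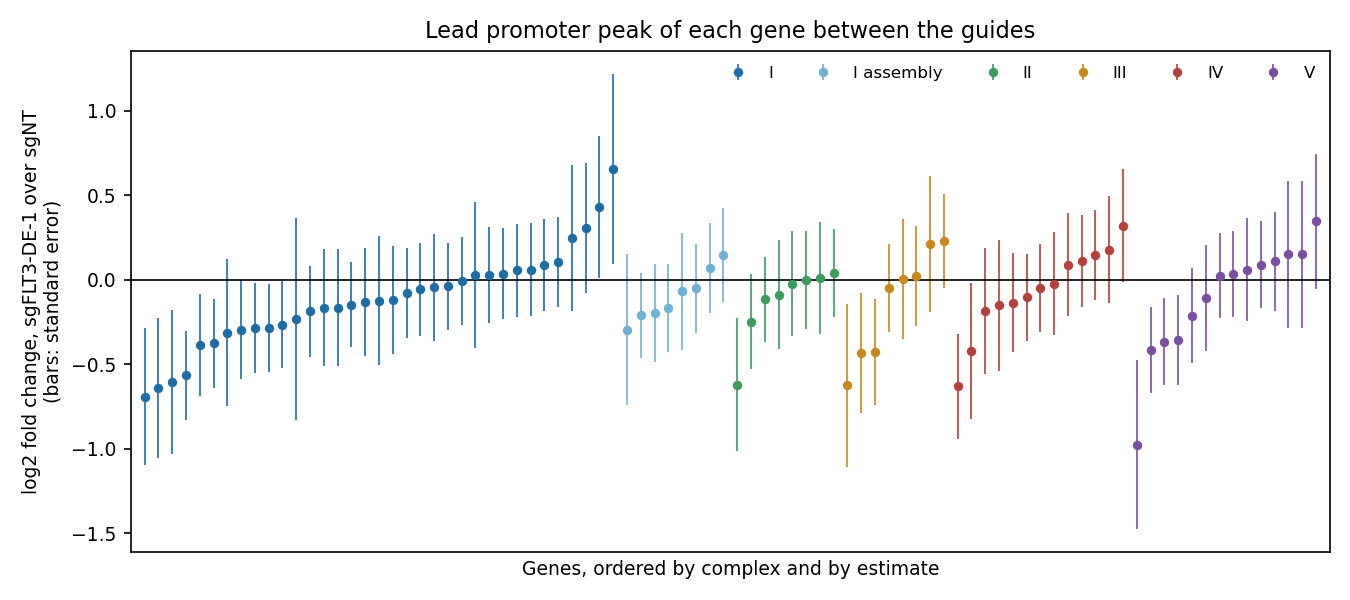
Points are the log2 fold changes (sgFLT3-DE-1 over sgNT) of the lead peak of each of the 86 genes, ordered by complex and by estimate, with bars of 1 standard error. Estimates fall on both sides of 0 in every class, and none passed an adjusted p of 0.05.

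Complex I takes electrons from NADH. NDUFV3, an accessory subunit of its NADH-oxidising arm, has a single peak (chr21:44313115-44313531) over the start, of which 304 bp lie upstream and 73 bp in exon 1. It held 18.8 and 17.6 CPM in the sgFLT3-DE-1 libraries and 24.6 and 30.1 in the sgNT libraries, without overlap. Its log2 fold change was -0.57 (SE 0.265, edgeR unadjusted p = 0.0411, adjusted p = 1.0). NDUFS3, a core subunit, gave the smallest p among higher subunit peaks. That peak (chr11:47600147-47600361) lies 220 bp from the nearest annotated start of NDUFS3. The start of the divergent gene KBTBD4 (position 47600522) is nearer, and the peak lies downstream of it. The peak held 11.2 and 11.0 CPM against 6.76 and 9.17. Both sgFLT3-DE-1 values were above both sgNT values, with a log2 fold change of 0.51 (SE 0.339), which was 0.28 without sgNT library 1. The larger peak over the NDUFS3 start went by -0.05 (SE 0.319), and the difference between these peaks was not tested.

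NDUFS8, a core iron-sulfur subunit, is the member whose HOXA9-bound region the study followed with guides of its own, in other cells than these libraries. Its only peak (chr11:67797845-67798212) runs from 303 bp before the start through 53 bp of exon 1, which is untranslated. The study's guides are shown because both fall inside this peak, with the PAM in capitals:
sgNDUFS8_19 (chr11:67798179-67798198, plus strand): caagtagcggcggcgcttcaAGG
sgNDUFS8_9 (chr11:67798134-67798153, minus strand): ggaggcggaggctacactgtAGG
The first lies in exon 1 and the second spans the start. The peak held 12.3 and 21.0 CPM in sgFLT3-DE-1 and 18.5 and 23.9 in sgNT, with overlapping groups. Its log2 fold change was -0.30 (SE 0.292), which became 0.01 without sgFLT3-DE-1 library 1 and -0.76 without sgFLT3-DE-1 library 2.

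NDUFB9, divergent from TATDN1 and sharing its peak, held 10.1 and 14.2 CPM against 18.1 and 14.3, which do not overlap by a narrow margin (log2 fold change -0.39, SE 0.301). NDUFB7, an accessory subunit and the lowest of its class in level, held 5.60 and 5.00 against 4.92 and 4.04 (0.25, SE 0.431). NDUFC1, at its peak over the NAA15 start, held 45.7 and 42.0 against 54.4 and 43.7 (-0.15, SE 0.254). The highest estimate of any member was at NDUFA9, a subunit divergent from AKAP3, with 11 and 21 counts against 5 and 9 (0.66, SE 0.564), from low counts.

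Assembly factors build complex I and are not part of the finished enzyme. NDUFAF6 showed opposite estimates at separate starts. The peak at chr8:95908406-95908600, next to CCNE2, held 5.60 and 7.41 CPM in sgFLT3-DE-1 and 11.4 and 9.54 in sgNT (log2 fold change -0.65, SE 0.352), and the peak over the canonical start (chr8:96036911-96037379) held 45.7 and 41.6 against 33.8 and 40.0 (0.26, SE 0.253, and 0.13 without sgNT library 1). The groups did not overlap at either peak, in opposite directions, and the difference between the peaks was not tested. NDUFAF7, divergent from CEBPZ, held 20.5 and 21.0 against 20.3 and 19.8 (0.07, SE 0.266), so that all 4 values lay close together. NDUFAF1 held 2.80 and 7.41 against 4.61 and 8.81 (-0.30, SE 0.447), so libraries of 1 guide differed more than the guides. NDUFAF2 held 50.2 and 37.2 against 52.9 and 38.2 (-0.05, SE 0.263).

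Complex II, succinate dehydrogenase, also belongs to the citric acid cycle. SDHAF1, an assembly factor for its iron-sulfur subunit, held 4.20 and 6.00 CPM in sgFLT3-DE-1 and 6.46 and 9.91 in sgNT, without overlap (log2 fold change -0.62, SE 0.394). This was -0.32 without sgNT library 2 and -0.93 without sgFLT3-DE-1 library 2 or sgNT library 1. SDHAF4, an assembly factor for the flavoprotein subunit, held 51.6 and 35.6 against 46.4 and 38.9 (0.04, SE 0.262), and its sign turned under other settings, for example to -0.25 without sgFLT3-DE-1 library 1. SDHD, a membrane anchor divergent from TIMM8B, held 12.9 and 14.8 against 9.84 and 20.5 (-0.09, SE 0.321), and sgNT library 1 and 2 enclose both sgFLT3-DE-1 values. SDHB, the iron-sulfur subunit, held 55 and 71 counts against 55 and 51 (-0.25, SE 0.282). SDHAF3 held 38.1 and 34.6 CPM against 36.9 and 42.9 (-0.12, SE 0.252).

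Complex III passes electrons from ubiquinol to cytochrome c. UQCR11, a small accessory subunit, has a peak 14 bp from its start (chr19:1605486-1605688) with 3.92 and 4.60 CPM in sgFLT3-DE-1 and 7.38 and 8.07 in sgNT. These did not overlap, and its log2 fold change was -0.82 (SE 0.398, edgeR unadjusted p = 0.0490, adjusted p = 1.0). The peak rests on 14 to 24 counts in a library. The next UQCR11 peak upstream (chr19:1605791-1606176) held 4.76 and 11.0 CPM against 5.53 and 8.81, with an estimate of the other sign (0.21, SE 0.402). UQCRH, the hinge subunit divergent from LRRC41, had lower values without overlap at both tested peaks, 21 and 39 counts against 34 and 23 at the first (-0.43, SE 0.356) and 21 and 34 against 23 and 31 at the second (-0.49, SE 0.370). UQCRB held 17.7 and 21.8 CPM against 18.8 and 15.4 (0.23, SE 0.278, and 0.05 without sgFLT3-DE-1 library 2 or 0.08 without sgNT library 2), and UQCRQ 24.9 and 36.2 against 34.1 and 30.4 (-0.05, SE 0.261).

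Complex IV is cytochrome c oxidase. COX5A, a nuclear subunit on its matrix side, held 9.81 and 8.61 CPM in sgFLT3-DE-1 and 14.1 and 14.7 in sgNT (chr15:75230190-75230681). The libraries of each guide lay close together and the groups did not overlap, with a log2 fold change of -0.63 (SE 0.311, edgeR unadjusted p = 0.0517). COX6B1, a subunit on the side of cytochrome c, held 10.1 and 17.0 against 8.61 and 13.9 (0.32, SE 0.333, and -0.13 without sgFLT3-DE-1 library 2), and library 2 was above library 1 with both guides. COX4I1, which shares its peak with EMC8, held 24 and 35 counts against 21 and 26 (-0.19, SE 0.370). COX7C, the highest of the class, held 76.8 and 40.2 CPM against 78.7 and 50.3 (-0.14, SE 0.293). Its libraries of number 1 thus sat far above those of number 2 with either guide.

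Complex V is the ATP synthase. ATP5F1D, the delta subunit of its central stalk, had the lowest estimate of all members, -0.98 (SE 0.500), at a single small peak (chr19:1241623-1241798). It held 8 and 17 counts in the sgFLT3-DE-1 libraries and 11 and 23 in the sgNT libraries. After scaling, the higher sgFLT3-DE-1 value (3.40 CPM) just passed the lower sgNT value (3.38 CPM), so the groups overlapped. The estimate was -0.23 without sgNT library 2 and -1.53 without sgNT library 1. ATP5F1A, the alpha subunit, has a peak with 6.17 and 9.21 CPM against 5.84 and 6.60 (0.35, SE 0.381, and 0.00040 without sgFLT3-DE-1 library 2 or 0.58 without library 1), and its lead peak held 49 and 82 counts against 54 and 52 (-0.21, SE 0.283). ATP5F1B, the beta subunit, held 42.0 and 51.4 CPM against 43.3 and 49.5 (0.03, SE 0.255), and ATP5MK, divergent from PDCD11, 26.6 and 31.0 against 26.1 and 29.0 (0.09, SE 0.256). Lower values without overlap were found at ATP5F1E (97 and 165 counts against 124 and 119, -0.41, SE 0.254), the epsilon subunit, and at the genes of the membrane ring subunit ATP5MC1 (98 and 172 against 116 and 125, -0.37, SE 0.258) and ATP5MC2 (59 and 102 against 75 and 69, -0.36, SE 0.267), the peaks being named here after their values were seen. The third gene of this subunit, ATP5MC3, overlapped between the guides at its lead peak, with 9.81 and 12.4 CPM against 11.99 and 12.47 (-0.11, SE 0.312). The raw counts in sgFLT3-DE-1 library 2 are high because that library is the deepest.

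**Figure D4:**
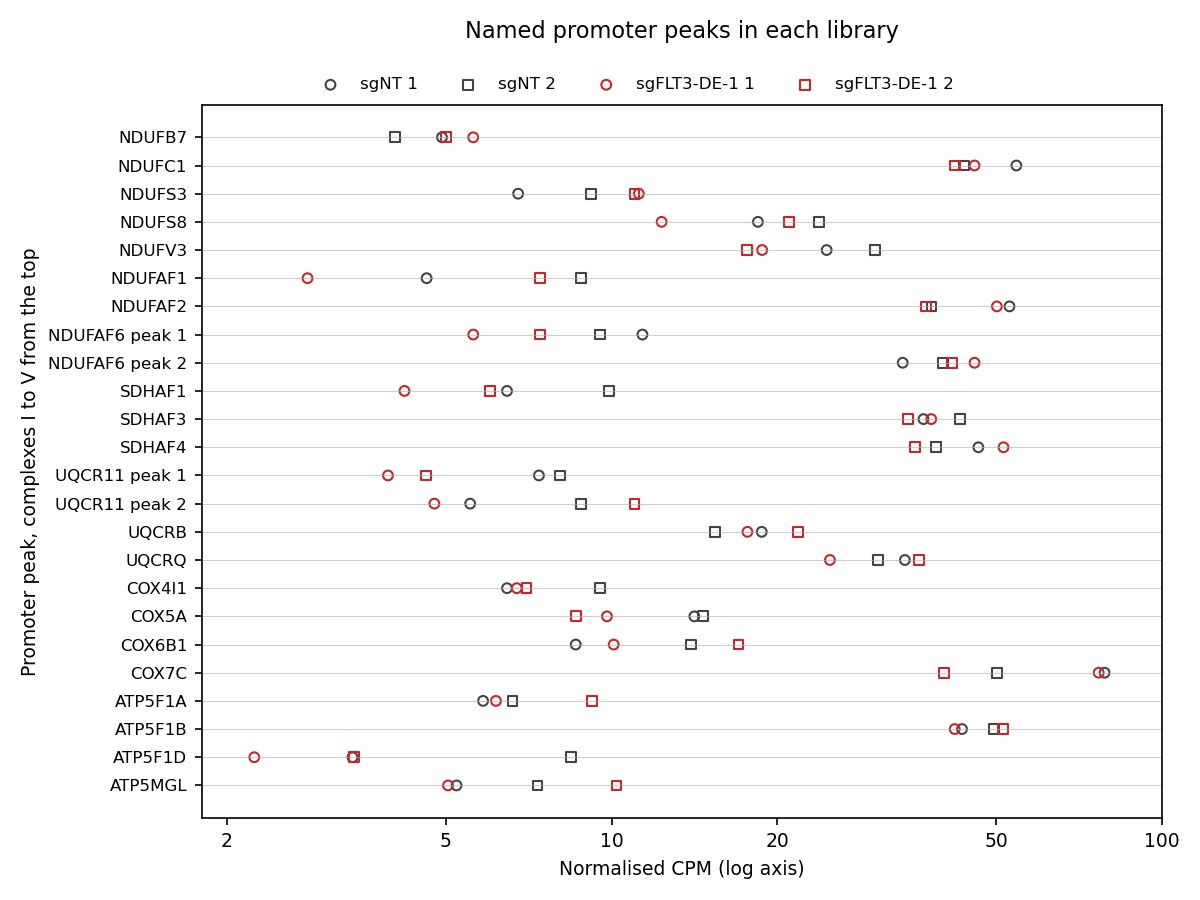
Normalised CPM (log axis) of the named promoter peaks in each of the 4 libraries, circles for library 1 and squares for library 2, grey for sgNT and red for sgFLT3-DE-1, from complex I at the top to complex V. NDUFV3, COX5A and the first UQCR11 peak have red points to the left of the grey ones, and at COX7C the circles lie to the right of the squares in both colours.

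Libraries of the same number were also compared across the guides. The log2 ratio of library 1 over library 2 had the same sign with both guides at 82 of 128 member peaks (64.1%), much as over all tested peaks (65.7%). At members the shared direction was uneven: 54 peaks were higher in library 2 of both guides and 28 in library 1 of both, while over all tested peaks the counts were 26994 and 27279 and over promoter peaks of coding genes 6899 and 5159. In complex V 13 of 19 peaks were higher in library 2 of both guides and 1 in library 1 of both, and in complex III 7 and 1 of 13. In complex IV the counts were 6 and 6. Across the 84 distinct lead peaks the ratio in one guide correlated with that in the other with a Pearson r of 0.59, as a description over peaks of the same 4 libraries. COX7C, UQCRFS1 (the Rieske iron-sulfur protein of complex III) and NDUFA4 were among those higher in library 1 of both guides, and ATP5F1D, NDUFAF3 and NDUFAF1 among those higher in library 2. The sources do not say what the number stands for.

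**Figure D5:**
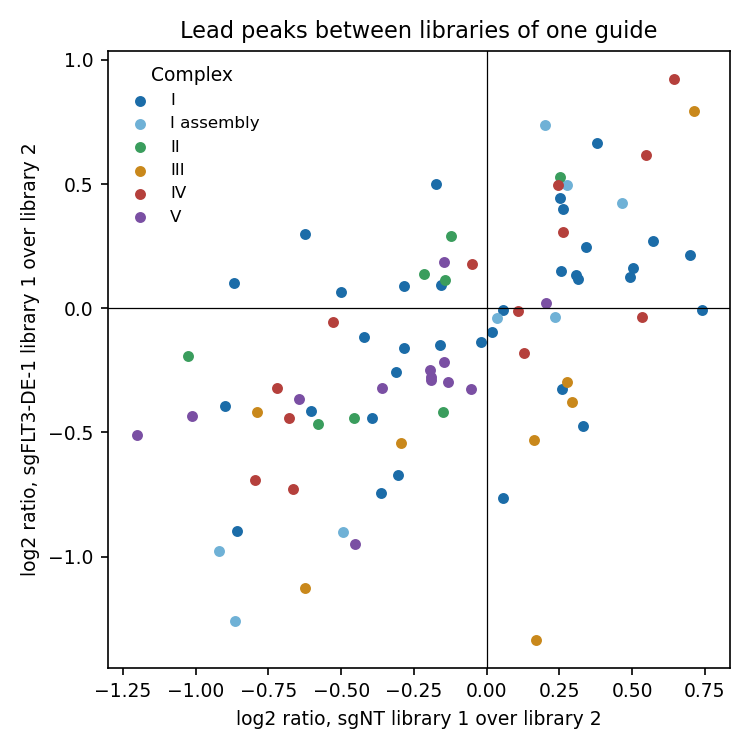
Each point is the lead peak of 1 gene, with the log2 ratio of sgNT library 1 over library 2 on the x axis and that of sgFLT3-DE-1 on the y axis, coloured by complex. Of 84 distinct lead peaks 58 lie in the quadrants where both ratios have the same sign, 37 of them higher in library 2 of both guides.

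Other genes of the pathway were read in the same fit: assembly factors of complexes I, III, IV and V, ATP synthase subunits with other symbols, cytochrome c and its partner, and genes of mitochondrial DNA upkeep and nuclear regulation. Of 72 such genes 67 had a promoter peak, and 99 of 106 peaks were tested. None passed an adjusted p of 0.05 in edgeR. At an unadjusted p under 0.05 in edgeR a single peak of the 99 was lower, where 1.07% of all tested peaks were lower. In the other direction 0 were higher, where 0.827% of all were. By estimate 73 of 99 were lower (73.7%) and 26 higher, with a median log2 fold change of -0.15, against 62.7% lower and -0.09 for promoter peaks of all coding genes. ESRRA, a nuclear receptor that regulates mitochondrial genes, held 23.3 and 27.8 CPM in sgFLT3-DE-1 and 37.8 and 37.4 in sgNT (-0.53, SE 0.253, edgeR unadjusted p = 0.0441, adjusted p = 1.0). POLG, the polymerase of mitochondrial DNA, held 35.3 and 43.0 against 52.3 and 58.3 (-0.47, SE 0.254), and FMC1, an assembly factor of the ATP synthase that shares its peak with LUC7L2, 9.81 and 10.2 against 16.3 and 13.6 (-0.56, SE 0.305). The groups did not overlap at any of these 3 peaks, which were picked for the smallest p. Lower values without overlap were found at 14.9% of all tested peaks and at 25.2% of promoter peaks of coding genes. The lowest list median was -0.42, for complex V assembly (5 of 5 peaks lower, 3 of them at FMC1 and the others at ATPAF1 and ATPAF2). The highest were 0.03 for cytochrome c and its partner (1 of 2 lower) and 0.02 for complex III assembly (4 of 8 lower). The difference between the lists was not tested.

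Level and motif were set side by side as a description. The 5 genes with the NRF1 palindrome had a median of 82.1 CPM per kb in sgNT against 49.5 for the other 81. The 16 genes with a peak and the YY1 word had 38.7 against 54.7, the 25 with the ETS word 50.9 against 54.7, the 53 with the SP1 word 54.7 against 44.1, and the 23 with the NFY word 68.6 against 43.5. The median log2 fold change between the guides was 0.02 for genes with the NRF1 palindrome and -0.10 without, -0.10 with the YY1 word and -0.07 without, -0.09 with the ETS word and -0.07 without, -0.14 with the SP1 word and -0.0014 without, and -0.06 with the NFY word and -0.08 without. The words were also counted within the lead peaks themselves. There the comparison was with 12591 protein-coding genes that have a canonical start and a peak, not with the 19516 of the windows. The YY1 word was again more frequent in members (20.9% against 9.07%), as was the NRF1 palindrome (5.81% against 2.68%), while the ETS word was closer (26.7% against 22.4%). The SP1 word (65.1% against 75.2%) and the NFY word (31.4% against 38.8%) were less frequent in members than in the lead peaks of those genes.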

How the data were processed

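ATAC-seq libraries of SEM cells with dCas9-KRAB-BSD were grouped by the treatment in the labels, 2 with sgFLT3-DE-1 and 2 with sgNT. The authors deposited raw counts per consensus peak for all 4 libraries, and a list of the same 139872 regions, with coordinates on hg19 and starts counted from 0 (printed here from 1). The sources differ on the upstream steps: the protocol and the methods name cutadapt and Bowtie2, and the submitters' processing notes list MACS2 2.1.1.20160309, Trim Galore 0.4.4 with cutadapt, SAMtools 1.2, BWA and bedtools 2.24.0. The study's reporting summary describes short, nucleosome-free fragments for the peak calls. Whether the counts use the same fragments, and any shift for the transposase, is not stated in these sources. Peaks were called in the libraries compared, so a region open with either guide enters the list, and reads of near-identical copies may be lost or misplaced.

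The deposited counts went into edgeR 4.0.16 in R 4.3.3 (with limma 3.58.1). Of all peaks, 82558 passed filterByExpr at its minimum count of 10 and total of 15. After TMM scaling, the guides were compared by the quasi-likelihood test, without other terms, with Benjamini-Hochberg adjustment over all tested peaks and a threshold of 0.05. A standard error was taken as the size of the log2 fold change divided by the root of the F statistic. Normalised CPM divide counts by TMM-scaled totals; n = 2 libraries per guide throughout. The script was tested on simulated data.

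Members were found by symbol in the GENCODE annotation on GRCh37, with starts of protein-coding transcripts. Members, lists and motifs were chosen with earlier results of these data known. Genes were named by rule: per class the smallest p in each direction, the highest and lowest lead peak in sgNT, the nearest divergent start, NDUFS8, members without a peak and tissue isoforms, and the 3 other respiratory genes of smallest p; any other gene was named after its values were seen. Alternatives were other scalings, a GC correction, other filters, DESeq2 1.42.0, limma-voom, a replicate block, leaving out each library, and a 500 bp window. Some items are not reported here.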

Additional observations from a re-analysis of the deposited data

How the results depend on the processing

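No member peak and no peak of the other respiratory genes passed an adjusted p of 0.05 under any alternative run. Over all tested peaks the count (2 as reported) was 1 with total counts only, with the GC correction and with DESeq2, 6 with loess offsets, 5 without a filter, 0 at a mean count of at least 50, and 0 to 9 when 1 library was left out (9 without sgFLT3-DE-1 replicate 2, 0 without sgNT replicate 2). With the replicate number as a block it was 74 (0.0896%), and 20 with the block and the GC correction, none of them a member. Same-numbered libraries deviated together (correlation 0.397 over 82558 peaks), but with 2 pairs and no source for the number this is a hint from the data and not the design.

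Leaving out 1 library gave a median log2 fold change of -0.19 to -0.049 over all members, -0.093 to -0.023 in complex I subunits, -0.11 to -0.012 in complex I assembly factors, -0.30 to -0.026 in complex II, -0.62 to -0.052 in complex III, -0.13 to 0.033 in complex IV and -0.29 to 0.0090 in complex V. Signs turned for SDHAF4 (-0.024 without a filter, -0.25 to 0.28 with 1 library left out), COX6B1 (-0.13 to 0.67) and NDUFS8 (-0.76 to 0.012), and the cause was not tested. Summing all peaks of a gene moved the sgNT median to 45.5 CPM per kb in complex I subunits, 76.2 in complex I assembly factors, 43.7 in complex III and 42.1 in complex V. Most member peaks rest on few counts, and differences of the size of their standard errors were not detectable at this depth. The peak over the sgFLT3-DE-1 target did not pass the threshold in the main fit either, with a log2 fold change of -0.92 (SE 0.264). A change of that size at a single peak could thus go uncalled.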
